A study of Rattus norvegicus with 8 samples.

Results

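The family of miR-148 and miR-152 is a group of miRNAs that share the seed CAGUGCA, the 7 bases with which a miRNA finds its targets. It was followed here in the kidneys of 4 rats treated with aristolochic acid (AA), a plant toxin that damages the kidney and causes tumours, and of 4 control rats. The members were picked by name, as every listed row for miR-148a, miR-148b or miR-152 with both arms of the hairpin where listed. This gave 4 of the 620 miRNAs in the table, namely miR-148b-3p and miR-148b-5p from one hairpin and miR-152 and miR-152* (rno-miR-152 and rno-miR-152* in the counts) from another. The family was chosen with the difference between AA-treated and control rats already known, so that this difference is given for its members as a description without a p-value.

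All 8 animals were male Big Blue rats, a transgenic line on the Fisher 344 background, so that the controls carry the transgene too. From an age of 6 weeks, the AA-treated rats were given the sodium salt of AA by gavage, 10.0 mg per kg in a volume of 4 ml/kg, and the control rats received 0.9% sodium chloride, both 5 times a week, and kidneys were taken 1 day after the last dose. The treatment lasted 12 weeks by the protocol, whereas the sample descriptions give 12, 13, 14 and 15 weeks for the rats numbered 1 to 4 of each group, and the age of all rats is given as 18 weeks. Each kidney gave 1 small RNA library with 13412373 to 15616670 counts on miRNAs, and the values are reads assigned to each mature miRNA. Counts were divided by size factors that set the typical miRNA equal between rats ("normalized counts"). A kidney piece holds many cell types, and fewer cells of a type cannot be told apart from less of a miRNA per cell.

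A miRNA hairpin is cut into a duplex, of which one arm, the major arm, is mostly kept and loaded into the silencing complex while the other, the minor arm, is mostly discarded. The major arms of this family are among the miRNAs known to repress DNA methyltransferase 1, the enzyme that copies DNA methylation at cell division, and their loss has been described in several tumour types. Both hairpins lie inside genes for zeta subunits of the COPI coat, which shapes vesicles between the Golgi and the endoplasmic reticulum. In the RefSeq gene table of the GRCr8 assembly, Mir148b lies within the span of Copz1 on chromosome 7 and Mir152 within that of Copz2 on chromosome 10, each on the strand of its host gene. The table gives no exons, and the host mRNAs were not analysed here.

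The mature sequences are shown because the family is defined by them, with bases 2 to 8, the seed, in capitals. They are from RefSeq (GRCr8), where miR-148b-3p lies at chr7:136299930-136299951 (+), miR-152, named miR-152-3p there, at chr10:82329435-82329455 (+), and miR-152*, named miR-152-5p there, at chr10:82329397-82329419 (+). Of the 4 members, 3 were matched, all but miR-148b-5p.
miR-148b-3p: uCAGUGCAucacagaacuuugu
miR-152: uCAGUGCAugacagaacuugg
miR-152*: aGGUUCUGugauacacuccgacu

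Over the 21 bases that both major arms have, miR-148b-3p and miR-152 differ at 2 positions, C10G and U20G, counted from 1 at the 5′ end with the base of miR-148b-3p first. miR-148a-3p, the third miRNA with this seed among the 724 mature sequences of the RefSeq table, has no row in the counts. It differs from miR-148b-3p at 2 of 21 positions (U9C and C10U) and from miR-152 at 3 of 21. The rule by which the counting placed reads that match several of these sequences is not given in the sources used here. The split of reads between miR-148b-3p and miR-152 is therefore uncertain, and whether their counts hold reads of miR-148a-3p is not known.

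In the normal kidney, the major arms of both hairpins were abundant and the minor arms were not. In the control kidneys, miR-148b-3p had 101605 ± 9715 normalized counts (SD, n = 4) and ranked 20 among the 620 miRNAs by the mean of the control rats. miR-152 followed at rank 21 with 69300 ± 11934 normalized counts (SD, n = 4). Within single control rats, miR-148b-3p ranked 17 to 19 and miR-152 ranked 21 to 25. miR-148b-5p had 2150 ± 320 normalized counts (SD, n = 4), and miR-152* had 18.0 ± 1.91 (SD, n = 4). The ranges of the control kidneys did not overlap between any of these neighbours, so that the order miR-148b-3p, miR-152, miR-148b-5p, miR-152* was the same in each control rat.

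Within a library, the counts of miR-148b-3p divided by those of miR-152 do not depend on the scaling between libraries. This ratio was 1.75, 1.52, 1.34 and 1.34 in control rats 1 to 4, and 1.65, 1.52, 1.43 and 1.33 in AA-treated rats 1 to 4. Its mean was 1.49 ± 0.197 (SD, n = 4) in the control kidneys and 1.48 ± 0.137 (SD, n = 4) in the AA-treated kidneys. The ranges of the groups overlapped, and miR-148b-3p was the higher arm in 8 of 8 rats.

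Both major arms were lower in every AA-treated rat than in every control rat. miR-148b-3p, the more abundant one, had 94329, 94923, 95553 and 92917 counts in control rats 1 to 4, and 67278, 64436, 61273 and 60844 counts in AA-treated rats 1 to 4. Before scaling, the counts of the control kidneys lay within a narrow band, and those of all AA-treated rats lay well below it. The libraries differed in depth, and control rat 4, the lowest control here, was the highest in normalized counts. In normalized counts, the 4 control rats had 98047, 104253, 90591 and 113529 of miR-148b-3p, and the 4 AA-treated rats had 75496, 50288, 60423 and 49547. This is 58939 ± 12102 (SD, n = 4) after AA treatment, 1.72-fold lower than in the control kidneys, with a log2 fold change of -0.79 (SE 0.19). AA-treated rat 1 was nearest to the controls on this scale.

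miR-152 had 53867, 62353, 71424 and 69579 counts in control rats 1 to 4, and 40740, 42483, 42966 and 45797 counts in AA-treated rats 1 to 4. The groups did not overlap here either, and the control kidneys were more spread than for miR-148b-3p, with control rat 1 lowest. In normalized counts, the control kidneys had 55990, 68482, 67715 and 85014 of miR-152, and the AA-treated kidneys had 45717, 33155, 42370 and 37294. The mean after AA treatment was 39634 ± 5536 normalized counts (SD, n = 4), 1.75-fold lower than in the control kidneys, with a log2 fold change of -0.81 (SE 0.19).

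miR-148b-3p and miR-152 were 2 of the 20 miRNAs that were lower in the AA-treated kidneys by the call rule of the fit over all 620 miRNAs (edgeR's quasi-likelihood test, adjusted p under 0.05 and a ratio of means over 1.5). These 20 are 3.23% of all miRNAs, and in either direction 9.03% passed. No minor arm passed. As normalized counts, 6.61% of all miRNAs had every AA-treated rat below every control rat, and 3.23% had this in the counts as deposited. Since the family was chosen with this contrast known, nothing is read from its share of calls.

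The call depended on how the libraries were scaled. The share of miR-21 among all counts was 2.51% to 3.39% in the control kidneys but 7.43% to 19.2% in the AA-treated kidneys. When libraries were scaled to their total counts, the median log2 fold change over the 620 miRNAs was 0.31 in place of 0.05. The AA-treated mean was then 0.688 of the control mean for miR-148b-3p and 0.681 for miR-152, short of the fold of 1.5 in the call rule, and the miRNAs called lower were 1.77% of all, against 9.35% called higher. With miR-21 left out of the totals, a setting chosen after seeing the data, the ratios were 0.774 and 0.767, and neither the fold nor the adjusted p of the call rule was met. The median over the 620 miRNAs was then 0.49. Also as shares of their library, the groups did not overlap. Together, both major arms made up 1.075% ± 0.0863 (SD, n = 4) of the counts in the control kidneys and 0.7365% ± 0.0549 (SD, n = 4) in the AA-treated kidneys.

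**Figure D1:**
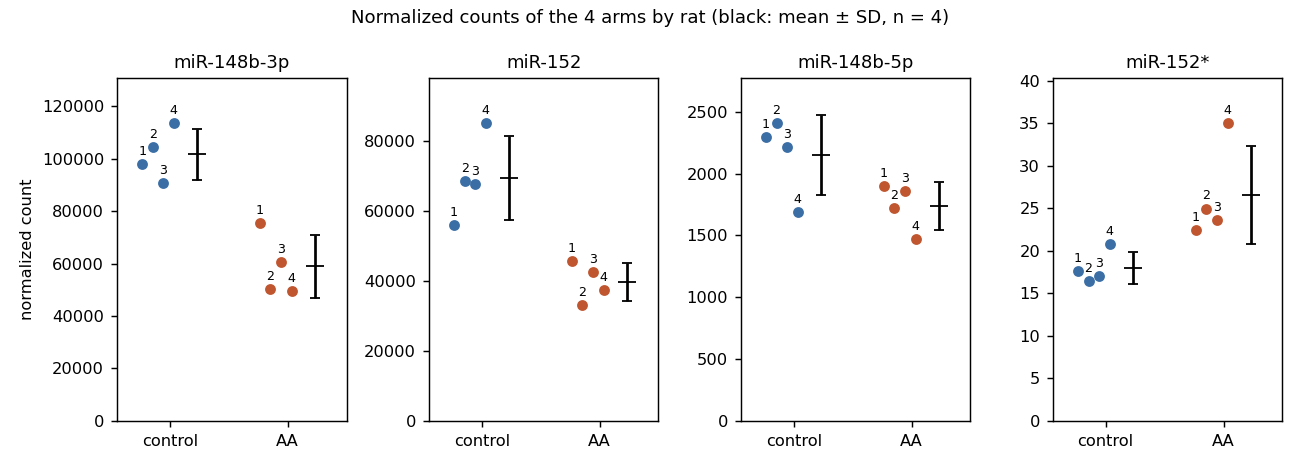
Normalized counts of the 4 arms, 1 panel each with its own axis from 0, in control (blue) and AA-treated (orange) rats. Each point is a rat with its number, and the black mark is the mean ± SD of 4 rats. miR-148b-3p and miR-152 have all AA-treated rats below all control rats, miR-148b-5p has overlapping groups, and miR-152* has all AA-treated rats above all control rats.

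The minor arms were not lower to the same extent. miR-148b-5p had 2208, 2192, 2335 and 1379 counts in control rats 1 to 4, and 1689, 2210, 1882 and 1801 counts in AA-treated rats 1 to 4. The groups overlapped, since control rat 4 was lower than every AA-treated rat. In normalized counts, the control kidneys had 2295, 2407, 2214 and 1685 of miR-148b-5p, and the AA-treated kidneys had 1895, 1725, 1856 and 1467, with a mean of 1736 ± 193.6 (SD, n = 4). The log2 fold change was -0.31 (SE 0.20). It was -0.06 when libraries were scaled to their total counts.

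miR-152* had 17, 15, 18 and 17 counts in control rats 1 to 4, and 20, 32, 24 and 43 counts in AA-treated rats 1 to 4. Although the numbers are small, each AA-treated rat had more than each control rat. In normalized counts, miR-152* was 17.7, 16.5, 17.1 and 20.8 in the control kidneys and 22.4, 25.0, 23.7 and 35.02 in the AA-treated kidneys. The mean after AA treatment was 26.5 ± 5.75 (SD, n = 4), 1.47-fold that of the control kidneys, with a log2 fold change of 0.56 (SE 0.32). Among all 620 miRNAs, 9.68% had every AA-treated rat above every control rat. The value of AA-treated rat 4 was the highest, and without this rat the log2 fold change was 0.41.

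Since both arms of a hairpin are cut from the same precursor and counted in the same library, the share of the minor arm is free of the scaling between libraries. For the miR-148b hairpin, miR-148b-5p took 2.29%, 2.26%, 2.39% and 1.46% of the counts in control rats 1 to 4, and 2.45%, 3.32%, 2.98% and 2.87% in AA-treated rats 1 to 4. The groups did not overlap, but control rat 3 and AA-treated rat 1 were close, with exact (Clopper-Pearson) 95% intervals of 2.291% to 2.483% and 2.335% to 2.567% that overlap. The mean share was 2.10% ± 0.427 in the control kidneys and 2.90% ± 0.357 in the AA-treated kidneys (SD, n = 4 each), 1.38 times as high.

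For the miR-152 hairpin, miR-152* took 0.0315%, 0.0241%, 0.0252% and 0.0244% of the counts in control rats 1 to 4, and 0.0491%, 0.0753%, 0.0558% and 0.0938% in AA-treated rats 1 to 4. No value of an AA-treated kidney reached down to a control value. The intervals of single rats were wide, such as 0.0184% to 0.0505% for control rat 1 and 0.0300% to 0.0758% for AA-treated rat 1, and they cover counting error only, since PCR reads are not independent molecules. The mean share was 0.0263% ± 0.00353 in the control kidneys and 0.0685% ± 0.0202 in the AA-treated kidneys (SD, n = 4 each), 2.60 times as high.

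**Figure D2:**
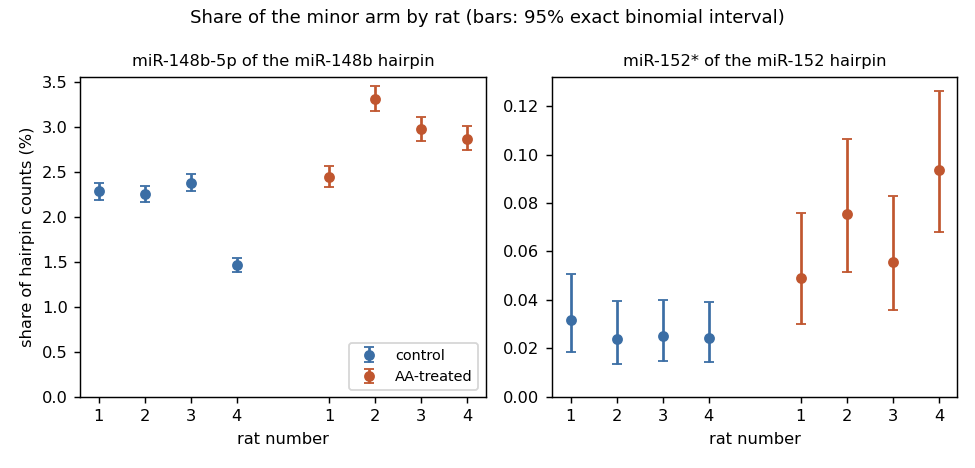
Share of the minor arm in the counts of its hairpin, in percent, for the miR-148b hairpin (left) and the miR-152 hairpin (right), by rat number and group. Bars are exact 95% binomial intervals. The shares of the 4 AA-treated rats lie above those of the 4 control rats in both hairpins, by a small margin between control rat 3 and AA-treated rat 1 for miR-148b.

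The same share was computed for all 158 hairpins that had both arms listed and at least 10 counts on the minor arm over the 8 rats. In 9 of them, or 5.70%, the share of the minor arm was higher in every AA-treated rat than in every control rat, the family's hairpins included, and in 6, or 3.80%, it was lower in every AA-treated rat. By the difference between the groups in the log2 ratio of minor to major arm (0.5 added to each count), the miR-152 hairpin ranked 4 from the highest with 1.33 and the miR-148b hairpin ranked 27 with 0.50, where the median of all hairpins was 0.08. The major arm is the divisor of this ratio, and its lower level was known when the family was chosen. In normalized counts, miR-148b-5p itself was not higher (log2 fold change -0.31). Nothing is therefore read from these ranks or from the family's place among the 9. In the control kidneys, the share of miR-152* was one of the smallest, since 8 of 158 hairpins, miR-152 included, had a share as low or lower. The share of miR-148b-5p was close to the median of 2.23%, with 76 of 158 hairpins as low or lower.

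**Figure D3:**
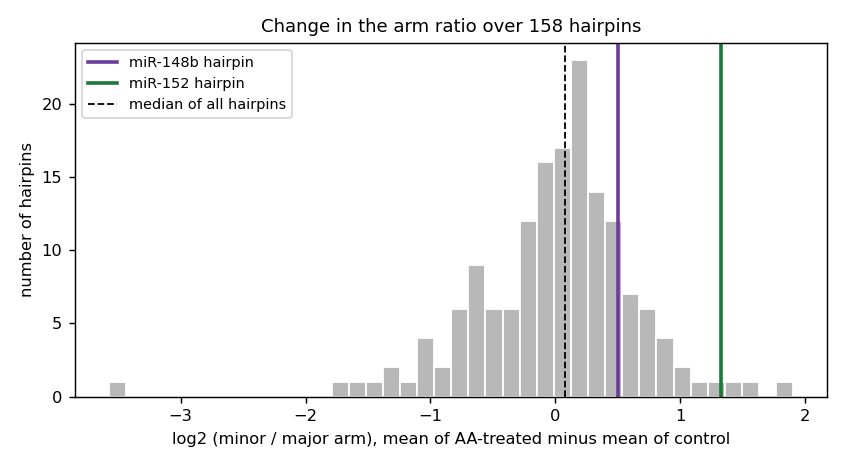
Number of hairpins (y axis) by the difference between AA-treated and control rats in the log2 ratio of minor to major arm (x axis), for 158 hairpins. The coloured lines mark the miR-148b hairpin at 0.50 and the miR-152 hairpin at 1.33, both to the right of the dashed median at 0.08.

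Within the groups, miR-148b-3p, miR-152 and miR-148b-5p varied less than the median miRNA. The SD of the log2 normalized count within groups was 0.223 for miR-148b-3p, 0.226 for miR-152 and 0.202 for miR-148b-5p, where the median over the 240 miRNAs with a mean of at least 100 normalized counts was 0.323. These were ranks 52, 56 and 34 from the smallest. A small spread within groups helps a miRNA to pass the call rule, and the family was chosen with its contrast known. The ranks of the major arms are therefore a description from which nothing is read. After the mean of each group was subtracted, miR-148b-3p and miR-152 deviated together over the 8 rats, with a Pearson correlation of 0.741. miR-148b-3p and miR-148b-5p, arms of the same hairpin, had 0.180, and miR-152 and miR-152* had -0.0218. The correlation farthest from 0 was that of the minor arms with each other, at -0.871. In each group, rat 4 deviated most for both of these arms. It had -0.338 (control) and -0.236 (AA-treated) for miR-148b-5p, and 0.202 and 0.409 for miR-152*, which had only 15 to 43 counts per rat. miR-148b-3p with miR-152* had -0.432, and miR-152 with miR-148b-5p had -0.288. The points share their libraries and size factors, so that these values are a description.

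On the same deviations, the miRNAs outside the family most like miR-148b-3p were sought among 237 with a mean of at least 100 normalized counts. The 5 highest correlations over the 8 rats were 0.924 for miR-140*, 0.905 for miR-194*, 0.873 for miR-379, 0.831 for miR-3559-5p and 0.822 for miR-194. AA-treated rat 1 had the highest deviation of the 8 rats for miR-148b-3p (0.379) and for each of these 5 (0.28 to 0.543). AA-treated rat 4 was below its group mean in all of them, at -0.229 for miR-148b-3p and -0.256 to -0.69 for the 5. miR-194 is an abundant miRNA of kidney and gut epithelium, and miR-194* is its other arm. miR-140* was also lower in the AA-treated kidneys, with 209372 ± 11926 normalized counts in the control and 126391 ± 28455 in the AA-treated kidneys (SD, 4 rats per group), with a log2 fold change of -0.73 (SE 0.19, adjusted p = 0.0252 from edgeR). miR-194* fell from 160 ± 21.8 to 86.9 ± 16.5 normalized counts (SD, 4 rats per group), with a log2 fold change of -0.88 (SE 0.25, adjusted p = 0.0386 from edgeR). miR-379, miR-3559-5p and miR-194 did not pass, with log2 fold changes of -0.42, -0.25 and -0.77 and adjusted p of 0.324, 0.488 and 0.0515 in the same test.

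The 6 letters AGUGCA, bases 3 to 8 of both major arms, also occur at the 5′ end of the miR-130/301 family. Its seed, AGUGCAA, is the family's seed shifted by 1 base. The sequences are shown so that the shift can be seen, with bases 2 to 8 in capitals and names as in the counts. In RefSeq (GRCr8) they carry the ending -3p and lie at chr3:90229240-90229261 (-) for miR-130a, chr11:97384430-97384451 (+) for miR-130b and chr11:97384077-97384099 (+) for miR-301b.
miR-130a: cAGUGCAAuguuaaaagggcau
miR-130b: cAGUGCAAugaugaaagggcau
miR-301b: cAGUGCAAugguauugucaaagc

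Of the 724 mature sequences, 7 held AGUGCA within the first 9 bases, searched on the given strand only. The list of offset-seed miRNAs was made up of miR-130a, miR-130b, miR-301b and miR-291b found in this way and of miR-301a, taken by name. Of these 5, 2 were called higher in the AA-treated kidneys and 0 lower, where 5.81% of all miRNAs were called higher. The median log2 fold change was 1.09, which is that of miR-291b with at most 9 counts in a rat, against 0.05 over all miRNAs. The list was chosen with earlier results of these data known, and its counts are a description.

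miR-130b had 147.6, 124.1, 141.3 and 108.7 normalized counts in control rats 1 to 4, and 720, 599, 404 and 757 in AA-treated rats 1 to 4. The groups were far apart, with a 4.75-fold increase and a log2 fold change of 2.25 (SE 0.26, adjusted p = 6.37e-05 from edgeR). miR-301b, from the same region of chromosome 11, rose from 12.0 ± 3.42 to 44.7 ± 15.7 normalized counts (SD, 4 rats per group), with a log2 fold change of 1.88 (SE 0.39, adjusted p = 0.00678 from edgeR). For both, the groups did not overlap. miR-130a and miR-301a are more abundant, with 13699 ± 1969 and 1192 ± 188 normalized counts in the control kidneys and 14955 ± 2282 and 1314 ± 197 in the AA-treated kidneys (SD, n = 4 each). Their log2 fold changes of 0.13 and 0.14 were smaller than their SEs of 0.18 and 0.21, with adjusted p of 0.685 and 0.689 in the same test.

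**Figure D4:**
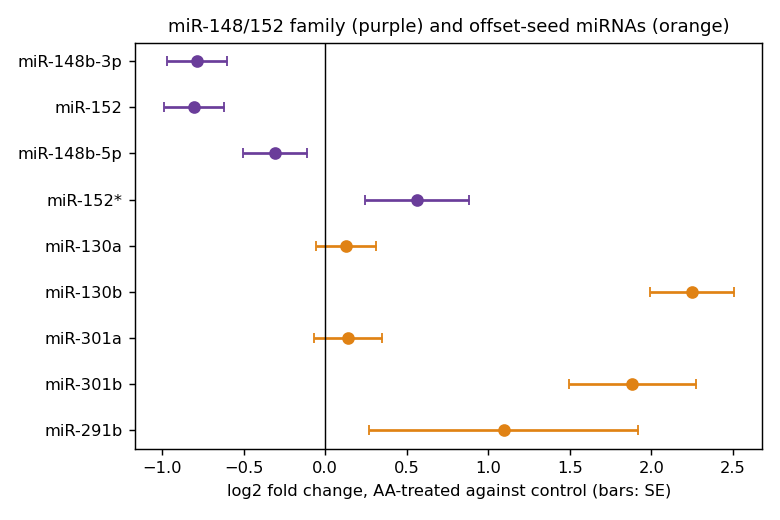
Log2 fold change between AA-treated and control rats (x axis, bars are SE) for the 4 members of the miR-148 and miR-152 family (purple) and the 5 offset-seed miRNAs (orange). Of the orange ones, miR-291b has a seed that is not shifted. miR-148b-3p at -0.79 and miR-152 at -0.81 lie left of 0, miR-130a and miR-301a lie near 0, and miR-130b at 2.25 and miR-301b at 1.88 lie to the right.

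Other miRNAs described as repressing DNA methyltransferase transcripts were taken as a list of 10, namely miR-29a, miR-29b, miR-29c, miR-101a, miR-101b, miR-126, miR-140, miR-143, miR-185 and miR-342-3p. Of these 10, 0 were called in either direction by edgeR, where 9.03% of all miRNAs were, and 9 had a log2 fold change below 0, as did 48.4% of all miRNAs, with a median of -0.32 against 0.05 over all miRNAs. At an unadjusted p under 0.05 there were miR-143 and miR-185, and DESeq2 called miR-185 with an adjusted p of 0.049. miR-143, the most abundant, had 2935740 ± 434769 normalized counts in the control kidneys and 2206880 ± 314510 in the AA-treated kidneys (SD, 4 rats per group), with a log2 fold change of -0.41 (SE 0.19, adjusted p = 0.200 from edgeR). miR-101a, the next, had 294189 ± 42467 and 230196 ± 67702 normalized counts (SD, 4 rats per group), with a log2 fold change of -0.35 (SE 0.23, adjusted p = 0.379 from edgeR). miR-185 had 2607 ± 773 and 1562 ± 438 normalized counts (SD, 4 rats per group), with a log2 fold change of -0.74 (SE 0.25, adjusted p = 0.0958 from edgeR). miR-29a was nearly equal in both groups at 66371 ± 6926 and 66072 ± 8129 normalized counts (SD, n = 4 each). miR-140 was the minor arm of its hairpin in these kidneys, with a mean share of 2.47% in the control rats. The major arm of that hairpin, miR-140*, is not on the list and was called lower, as given above.

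Marker miRNAs of kidney epithelium and of other cell types were read beside the family. Of 8 miRNAs of kidney epithelium, 1, miR-204, was called lower, where 3.23% of all miRNAs were, and 6 had a log2 fold change below 0. Their summed normalized counts were 524646 to 1267870 in the control kidneys and 355642 to 519671 after AA treatment. Most of this sum was miR-192, which was not called and whose groups overlapped. It had 328824 to 1124300 normalized counts in control kidneys and 205633 to 388616 after AA treatment. The value of 1124300 was that of control rat 4 alone, and the other control rats had 328824 to 454738. miR-200c and miR-141 had log2 fold changes of 0.37 and 0.08. Of the 5 leukocyte miRNAs fixed, 4 were listed, of which 2, miR-142-3p and miR-223, were called higher, where 5.81% of all miRNAs were. The leukocyte sums were 13715 to 17802 normalized counts in control kidneys against 29485 to 56648 after AA treatment. Most of this sum was miR-142-3p. miR-142-5p, the other arm of its hairpin, had overlapping groups and a log2 fold change of 0.26 (adjusted p = 0.632 from edgeR). miR-150 had a log2 fold change of 0.52 without overlap and was not called.

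No miRNA of endothelium (2 listed), fibroblasts and smooth muscle (5 listed) or red cells (2 of 3 listed) was called. The endothelial sums were 124106 to 164003 normalized counts in control kidneys and 88876 to 137262 after AA treatment, and those of red cells were 6910 to 11910 and 2172 to 8116. The sums of fibroblasts and smooth muscle, 2559050 to 3549720 and 1973050 to 2676500 normalized counts, were nearly all miR-143. The other 4 of these 5 miRNAs had log2 fold changes above 0, between 0.22 for miR-145 and 0.73 for miR-199a-5p, and the median of the 5 was 0.43. miR-199a-3p had 4375 to 5232 normalized counts in control kidneys and 5453 to 8440 after AA treatment, without overlap (adjusted p = 0.067 from edgeR). miR-122 of the liver had 60.4 to 735 normalized counts in the control group and 10.1 to 7519 in the AA-treated group. Its highest value was in AA-treated rat 2, where miR-152 was lowest in normalized counts, and in AA-treated rat 4 it was 16.3. miR-148b-3p was nearly equal in these rats, at 50288 in rat 2 and 49547 in rat 4. In the control group, miR-122 was highest in rat 1, at 735, where miR-152 was also lowest, at 55990. miR-148b-3p was lowest in control rat 3, at 90591, and not in control rat 1. None of the markers listed was at 0 in all rats. The part of these cell types in the lower level of the family was not tested.

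Across the other ways of scaling, testing and leaving out rats, the sign of the log2 fold change stayed below 0 for miR-148b-3p and miR-152 and above 0 for miR-152*, whereas that of miR-148b-5p turned to 0.11 with total counts without miR-21.

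**Figure D5:**
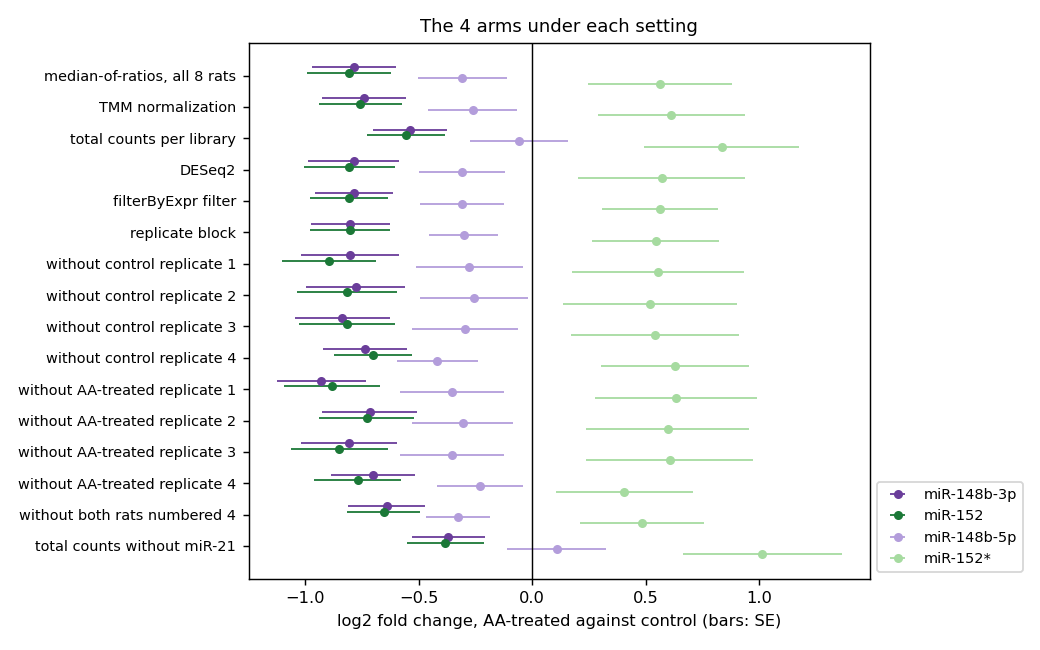
Log2 fold change of the 4 arms (x axis, bars are SE) under each setting (y axis), colours by arm. miR-148b-3p and miR-152 stay left of 0 in every setting and nearest to 0 with total counts without miR-21, at -0.37 and -0.38, whereas miR-152* stays right of 0.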

How the data were processed

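Small RNA libraries of 8 kidneys, 4 AA-treated and 4 control, were sequenced by the authors on an Illumina Genome Analyzer II. The deposited values are raw read counts per mature miRNA and rat, which the authors made by masking adaptors, removing contaminated reads and assigning the rest to known rat miRNAs (miRBase) with the miRanalyzer webserver at default parameters. The submitters' processing notes name CASAVA 1.7. No genome build is given in the sources used here for the miRNA counts.

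Each rat's group and number come from its title, and p-values measure the spread between single rats. No 2 rats of a group agreed within sampling noise (chi-square of at least 393.9 per degree of freedom). Median-of-ratios size factors were used with edgeR 4.0.16 (quasi-likelihood, no covariate, no filter, R 4.3.3) over all 620 miRNAs with Benjamini-Hochberg adjustment. SEs were taken as the log2 fold change divided by the root of the F statistic. miRNAs were called where the adjusted p was under 0.05 and the group means differed by a ratio over 1.5. Deviations used log2(normalized count + 1). Alternatives were TMM, total counts, total counts without miR-21 (chosen after seeing the data), DESeq2 1.42.0, edgeR's filter on low counts, a replicate block, and leaving out rats.

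Named were every member, the offset-seed and DNA methyltransferase lists with values for those called and the 2 most abundant, the 5 miRNAs most like the most abundant member, and the marker lists. miR-185, miR-29a, miR-140, miR-291b and the single markers with values were added after their values were seen. The members and lists were chosen with earlier results of these data known. Python 3.11.15, scipy 1.17.1 and matplotlib 3.10.9 were used for the other steps.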

Additional observations from a re-analysis of the deposited data

Results flagged for a closer look

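In the control rats, the share of miR-148b-5p in its hairpin had 1 value far from the others. Control rat 4 had 1.46% where the other 3 had 2.26% to 2.39%, and the gap was 0.861 of the whole range. The share of miR-152* in its hairpin was highest in control rat 1, with 0.0315% against 0.0241% to 0.0252% in the other 3, a gap of 0.847 of the whole range, and the counting interval of control rat 1 covers the other 3 values. Of 14 groups of 4 rats checked, 2 were marked in this way, where chance marks about 1 in 20 groups.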

How the results depend on the processing

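miR-148b-3p and miR-152 kept a log2 fold change below 0 under all 15 other settings and passed the call rule under 13 of them each. The exceptions were total counts per library, with log2 fold changes of -0.54 and -0.56 (miR-148b-5p -0.0597, miR-152* 0.83), and total counts without miR-21, with -0.37 and -0.38 (miR-148b-5p 0.11, miR-152* 1.01). Total counts gave 58 miRNAs called higher and 11 lower, or 84.1% higher, against 36 and 20, or 64.3%, in the report. Total counts without miR-21 called 107 miRNAs, where the report has 56. When 1 rat at a time was omitted, the log2 fold change lay between -0.93 and -0.70 for miR-148b-3p, between -0.89 and -0.70 for miR-152, between -0.42 and -0.23 for miR-148b-5p and between 0.41 and 0.63 for miR-152*. Without both rats numbered 4, miR-148b-3p had -0.64 and miR-152 -0.65. With the replicate number as a block, the values were -0.80, -0.80, -0.30 and 0.54, and 74 miRNAs were called. Same-numbered rats are separate animals whose deviations correlated by -0.0112 to 0.337. Of the 4 pairs, 3 were over 0.1, fewer than every pair, and 5 of 8 rats were closest to their own number, a hint from the data of a partial pairing. miR-130b and miR-301b were called under every setting. Of the DNA methyltransferase list, DESeq2 called 1, and 0 to 1 was called with each rat left out, miR-185 in the fit without AA-treated rat 1. In the control rats, with each rat left out, the rank of miR-148b-3p was 19 to 20, that of miR-152 21 to 23 and that of miR-152* 315 to 322. With Spearman correlation, 3 of the 5 miRNAs most like miR-148b-3p were the same. Depth limits miR-152* most, with 15 to 43 counts per rat.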
